A study of Mus musculus with 64 samples.

Results

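The main comparison was of transcript levels in the prefrontal cortex (PFCx) of mice given a single injection of mianserin and of mice given saline. The treatment and tissue labels picked 12 of the 64 libraries of the series, 4 from mianserin-treated mice, 4 from saline-treated mice of set I and 4 from saline-treated mice of set II. The mice were adult C57BL/6N males of 8 to 10 weeks, killed 2 h after an intraperitoneal dose of mianserin at 20 mg/kg or of saline. The PFCx samples took in the cingulate, prelimbic and infralimbic cortex with part of the dorsal peduncular cortex, cut from slices. The titles give a set for the saline libraries only and none for mianserin, and each comparison with all 8 saline libraries was repeated with the 4 of set II. RNA was depleted of ribosomal RNA and not selected for poly(A), so nuclear and noncoding transcripts were measured beside mRNA. Levels are in FPKM, the sequenced fragments of a transcript divided by its length and by the depth of the library. The estimated aligned depth was 1.52 to 2.78 gigabases in the 12 libraries. Further comparisons used PFCx libraries of mice given venlafaxine or ketamine, and nucleus accumbens libraries of mice given mianserin or saline. An alternative fit took in all 32 PFCx libraries, which include those after haloperidol, risperidone and methamphetamine. Nothing in the labels says how the replicates were housed or pooled, so the p-values measure the spread between these libraries.

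Mianserin is a tetracyclic antidepressant that blocks serotonin receptors of the 5-HT2 family, alpha2-adrenergic receptors and the histamine H1 receptor. Cortical neurons answer noradrenaline, glutamate and other signals through cAMP, calcium and the ERK kinases. These pathways switch on immediate-early genes such as Fos, Junb, Nr4a1 and Arc, together with phosphatases of the Dusp family that turn the same kinases off. Glucocorticoids, the hormones released in stress, act through the glucocorticoid receptor, a transcription factor that induces Sgk1, Tsc22d3, Per1 and other genes in neurons and glia.

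The markers fitted a cortical tissue. The summed level of 12 excitatory neuron markers was 431 to 524 FPKM after mianserin and 392 to 509 FPKM after saline, and it was 186 to 200 FPKM in the nucleus accumbens (NAc). Striatal neuron markers summed to 44.3 to 48.6 FPKM after mianserin and 43.5 to 102 FPKM after saline, with the highest value in saline set II replicate 4, against 564 to 804 FPKM in the NAc. Oligodendrocyte markers were the cell type list that stood higher with mianserin: all 9 had a positive difference, none passed the test while 7 had an unadjusted p under 0.05 in limma, as 8.10% of all genes tested did, and their sum was 193 to 223 FPKM against 151 to 208 FPKM (two-sided exact permutation p = 0.0202). Blood markers summed to 31.7 to 46.2 FPKM after mianserin, 38.4 to 58.5 FPKM in saline set II and up to 128 FPKM in saline set I (exact permutation p = 0.0384 against all saline). The part of either list in the results was not tested. In whole tissue, fewer cells of a type and less RNA per cell cannot be told apart.

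After mianserin 110 of 37006 genes passed an adjusted p of 0.05 in limma on log2(FPKM + 1), which is 0.297% of those tested, and 69 of them were higher (0.186%) and 41 lower (0.111%). Against saline set II alone 53 of 36271 genes passed (0.146%), 29 higher (0.08%) and 24 lower (0.0662%), and 35 genes passed both tests. The tests share the mianserin libraries and the set II libraries. In 109 of the 110 genes the 4 mianserin libraries lay outside the range of the 8 saline libraries, as they did for 1.36% of all genes tested, and the exception was Gm42979. The calls were made on these same libraries, so the separation follows largely from the selection and is no separate support. With every library scaled to the same 75th percentile 113 genes passed, 90 higher and 23 lower. Of the 69 genes that rose 54 have a protein-coding transcript, and of the 41 that fell 16 have one, beside 51.7% of all genes tested. The number of calls rested on single libraries: it was 56, 41 and 35 without mianserin replicates 1, 2 and 3, 62 and 64 without saline set I replicates 3 and 4, and 64, 73 and 62 without saline set II replicates 1, 2 and 3.

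Targets of the glucocorticoid receptor were among the largest rises. The largest rises and falls were named by a rule that took only called genes whose mianserin libraries all lay outside the saline range. Sgk1 (chr10:21882184-21999903 in mm10, plus strand) encodes a kinase that regulates ion channels and transporters. Its level was 28.6, 37.1, 32.5 and 35 FPKM after mianserin, 12.5, 9.69, 13.3 and 15.6 FPKM in saline set I and 14.8, 13.4, 14.4 and 13.5 FPKM in saline set II. Every mianserin library was above every saline library, 33.3 ± 3.65 FPKM against 13.4 ± 1.79 FPKM (SD, n = 4 and n = 8). The log2 difference of Sgk1 was 1.26 ± 0.11 (SE; limma adjusted p = 0.000467) against all saline and 1.18 ± 0.09 (SE; limma adjusted p = 0.00862) against set II.

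Txnip (chr3:96557957-96561883), which inhibits thioredoxin and limits glucose uptake, had the largest log2 difference among the rises named by rule. It was measured at 10.6, 11.4, 11.6 and 12.2 FPKM after mianserin, at 5.31, 6.19, 3.10 and 2.72 FPKM in saline set I and at 4.69, 2.92, 3.25 and 3.34 FPKM in set II. The groups did not overlap, and the log2 difference was 1.37 ± 0.17 (SE; limma adjusted p = 0.00511). Ddit4, an inhibitor of the mTORC1 growth pathway, stood at 7.07, 5.89, 6.21 and 5.12 FPKM after mianserin and at 1.71 to 3.03 FPKM in the 8 saline libraries, with a median of 2.18 FPKM. All 4 mianserin libraries were higher (log2 difference 1.14 ± 0.12 SE; limma adjusted p = 0.00249). Tiparp, a mono-ADP-ribosyltransferase, was at 3.97 to 4.66 FPKM after mianserin and 1.52 to 2.49 FPKM after saline, a log2 difference of 0.88 ± 0.08 (SE; limma adjusted p = 0.000986).

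**Figure D1:**
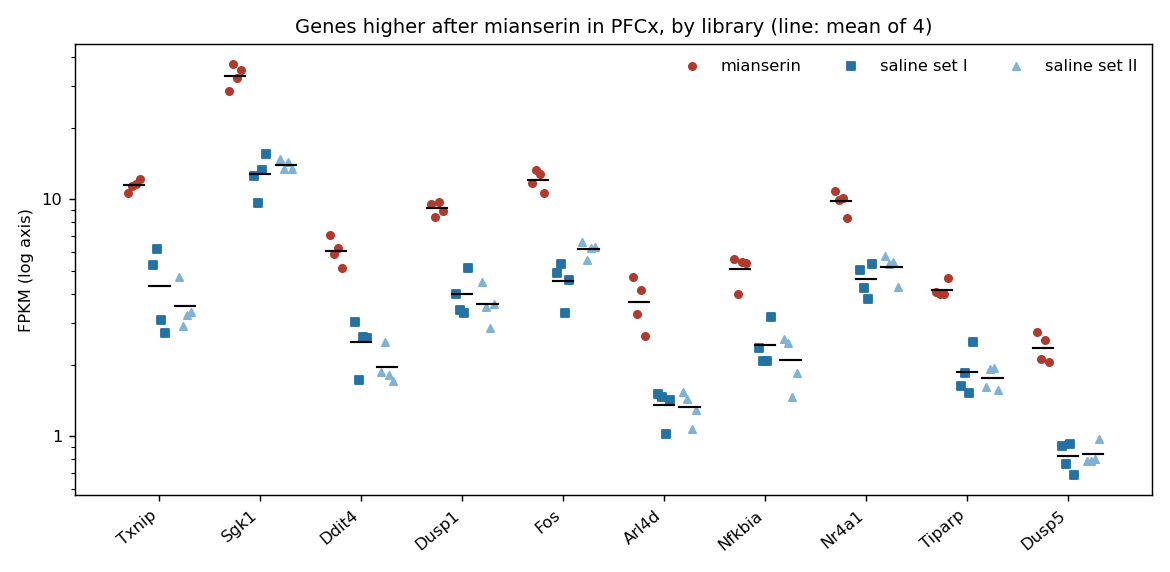
Level in FPKM (log axis) of the 10 genes with the largest rises by the naming rule, with 1 point for each PFCx library and a line at the mean of 4 (mianserin, saline set I and saline set II, as in the legend). For each gene the 4 mianserin libraries lie above all 8 saline libraries, which the rule required, for Sgk1 at 28.6 to 37.1 FPKM against 9.69 to 15.6 FPKM.

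Of the 35 glucocorticoid-responsive genes tested, 14 rose, none fell and 21 did not pass. The median log2 difference of the list was 0.35, beside -0.03 for all genes tested, of which 0.186% rose and 0.111% fell. This list and those below were chosen with earlier results of these data known, so their counts and medians are a description. Beyond Sgk1, Txnip, Ddit4 and Tiparp, Nfkbia, the inhibitor that holds NF-kappaB in the cytoplasm, rose by 0.91 ± 0.12 (SE; limma adjusted p = 0.00945). Tsc22d3, the glucocorticoid-induced leucine zipper, was at 18.1, 16.3, 16.1 and 13.5 FPKM after mianserin and 7.95 to 11.9 FPKM after saline (limma adjusted p = 0.0254). Per1, a repressor of the circadian clock, was at 9.48 to 12.1 FPKM against 5.41 to 8.23 FPKM (log2 difference 0.75 ± 0.11 SE; limma adjusted p = 0.0148). Cebpd, a transcription factor, was low in every library, at 0.641 to 1.08 FPKM against 0.0520 to 0.447 FPKM. The other members that rose were Arl4d, Arrdc2, Arrdc3, Cdkn1a, Dusp1 and Klf9. Fkbp5, a chaperone of the receptor and a widely used target gene, was at 4.58, 6.01, 5.66 and 6.18 FPKM after mianserin and 3.35 to 4.96 FPKM after saline, so the groups overlapped, and it did not pass (limma adjusted p = 0.257).

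The list depended on the saline libraries used. Against saline set II 8 of the 35 rose and none fell. Those that did not pass there included Per1 (limma adjusted p = 0.106), Tsc22d3 (0.0732), Cebpd (0.0538) and Klf9 (0.143). Arrdc2, Arrdc3 and Cdkn1a did not all pass there either. Leaving out 1 library ended the call of Nfkbia (without mianserin replicate 3, limma adjusted p = 0.0551) and of Per1 (without mianserin replicate 1 or 2, up to 0.0681). Tsc22d3 was lost without any 1 of 6 libraries, up to 0.121. Cdkn1a and Klf9 were each lost without any 1 of 10 libraries (up to 0.189 and 0.135), Arrdc2 and Arrdc3 without any 1 of 7 (up to 0.135 and 0.121), and Cebpd without mianserin replicate 1, 2 or 4 (up to 0.0859).

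Of 30 immediate-early transcription factors tested 5 rose, 1 fell and 24 did not pass, and the median log2 difference was 0.19. Of all genes tested 0.186% rose and 0.111% fell. Fos (chr12:85473890-85477273), which pairs with Jun proteins to form AP-1, was at 11.7, 13.3, 12.8 and 10.6 FPKM after mianserin. It was at 4.87, 5.34, 3.31 and 4.55 FPKM in saline set I and at 6.59, 5.57, 6.23 and 6.30 FPKM in set II. Set II was the higher of the saline sets on average, and all mianserin libraries were above both. The log2 difference was 1.06 ± 0.13 (SE; limma adjusted p = 0.00608) against all saline and 0.86 ± 0.08 (SE; limma adjusted p = 0.00944) against set II. Nr4a1, an orphan nuclear receptor, was at 9.85 ± 1.07 FPKM against 4.89 ± 0.712 FPKM (SD, n = 4 and n = 8; limma adjusted p = 0.00299). Csrnp1, a nuclear protein, rose by 0.81 ± 0.09 (SE; limma adjusted p = 0.00299) and Klf10, a zinc-finger repressor, by 0.52 ± 0.06 (SE; limma adjusted p = 0.00274). Junb, a partner of Fos, spread widely after mianserin, at 14.8, 9.16, 13.3 and 9.38 FPKM, against 2.79 to 6.80 FPKM after saline. Its adjusted p was 0.0309 in limma and 0.105 against set II, and the call was lost without any 1 of 7 libraries (up to 0.141).

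Egr1, a zinc-finger factor often used as an activity marker, was at 16.5, 15.6, 12.9 and 13.4 FPKM after mianserin and 10.5 to 15.7 FPKM after saline, so the groups overlapped (limma adjusted p = 0.631). Fosb, a relative of Fos, had its 4 mianserin libraries above all saline libraries, at 2.13 to 3.76 FPKM against 1.46 to 2.11 FPKM, and did not pass (limma adjusted p = 0.265). The mianserin libraries lay outside the saline range, in either direction, for 1.36% of all genes tested. Klf6, a Krüppel-like factor, fell: it was at 4.33, 4.83, 5.11 and 5.32 FPKM after mianserin and at 7.23 to 9.09 FPKM in the 8 saline libraries (log2 difference -0.60 ± 0.07 SE; limma adjusted p = 0.00271).

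Among 26 activity-induced effector genes 4 rose, none fell and 22 did not pass, with a median log2 difference of 0.07. Of all genes tested 0.186% rose and 0.111% fell. Against set II 2 of the 26 rose and none fell. Arc, whose protein governs AMPA receptor traffic at synapses, was at 20.5, 13.7, 13.8 and 11.9 FPKM after mianserin, at 6.14, 7.10, 5.36 and 6.46 FPKM in saline set I and at 10.1, 7.99, 7.91 and 6.44 FPKM in set II. The lowest mianserin library was above the highest saline library. The adjusted p was 0.0253 in limma against all saline and 0.134 against set II, and the call was lost without any 1 of 5 libraries (up to 0.0998). Arl4d, a small GTPase, rose to 3.69 ± 0.902 FPKM from 1.35 ± 0.198 FPKM (SD, n = 4 and n = 8; limma adjusted p = 0.00274). Pim3 and Plk2, kinases induced by activity, rose by 0.66 ± 0.10 and 0.37 ± 0.07 (SE; limma adjusted p = 0.0191 and 0.0402). Plk2 was lost without any 1 of 11 libraries (up to 0.139), and Pim3 without mianserin replicate 1 or 3 (up to 0.0998). Bdnf, the neurotrophin, was at 2.85 to 3.69 FPKM after mianserin and 2.94 to 4.38 FPKM after saline, and Homer1, a postsynaptic scaffold, at 45.1 to 54.0 FPKM and 40.2 to 57.7 FPKM. Both overlapped and neither passed (limma adjusted p = 0.56 and 0.985).

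Feedback inhibitors of the ERK and MAP kinases held the smallest adjusted p-values among the named genes. Dusp6 (chr10:99263231-99267488), a cytoplasmic phosphatase specific for ERK, was at 13.2, 12.8, 13.9 and 12.4 FPKM after mianserin. It was at 6.94, 7.05, 7.54 and 7.91 FPKM in saline set I and at 7.53, 7.45, 6.70 and 6.39 FPKM in set II. The gap between the groups was wide beside the spread within them (log2 difference 0.79 ± 0.06 SE; limma adjusted p = 0.000218). Dusp5, the nuclear ERK phosphatase, was at 2.76, 2.12, 2.54 and 2.06 FPKM after mianserin and at 0.689 to 0.978 FPKM after saline (0.88 ± 0.07 SE; limma adjusted p = 0.000218). Dusp1, which acts on p38 and JNK as well, was at 9.57, 8.46, 9.75 and 8.95 FPKM after mianserin and at 2.87 to 5.14 FPKM after saline (1.10 ± 0.11 SE; limma adjusted p = 0.000986). These 3 of the 23 members tested rose and none fell, beside 0.186% and 0.111% of all genes tested. All 3 passed against set II and in each of the 12 fits that left out 1 library. Dusp4, another nuclear member, had all 4 mianserin libraries above saline, at 1.07 to 1.56 FPKM against 0.712 to 1.02 FPKM, and did not pass (limma adjusted p = 0.148). Such a separation, in either direction, was present for 1.36% of all genes tested. Sprouty genes, which act on the pathway further upstream, did not pass, with Spry2 at 7.94 FPKM after mianserin and 6.73 FPKM after saline on average (limma adjusted p = 0.302). The list median was 0.16.

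Of 25 CREB and CRTC targets 5 rose and none fell (median 0.05). Among them Sik1, a salt-inducible kinase that shuts off CRTC, was at 3.09, 2.51, 2.19 and 1.62 FPKM after mianserin and 0.842 to 1.27 FPKM after saline (0.68 ± 0.10 SE; limma adjusted p = 0.0133), and the call was lost without mianserin replicate 2 or 3 (up to 0.0652). Dio2, the enzyme that activates thyroid hormone in glia, rose by 0.37 ± 0.05 (SE; limma adjusted p = 0.00956), and was lost without mianserin replicate 3 (0.0551). Neither Sik1 nor Dio2 passed against set II. Of 24 growth arrest and stress-response genes 5 rose and none fell (median 0.14), and against set II 4 rose and none fell. Cyr61, a secreted matrix protein of that list, was at 2.29, 1.41, 1.76 and 1.72 FPKM after mianserin and at 0.199 to 0.595 FPKM after saline (1.03 ± 0.09 SE; limma adjusted p = 0.00056). The lists share members, so some rises are counted more than once. Cdkn1a, Ddit4 and Tiparp of that list, Dusp1 and Per1 of the CREB list and Arl4d of the effector list are also glucocorticoid-responsive rises. Dusp1 is among the feedback inhibitors too. Of all genes tested 0.186% were higher. Of 24 NF-kappaB pathway genes Nfkbia alone passed (median -0.03), and of 21 clock genes Per1 alone (median 0.03). No gene passed in either direction among 33 cold-induced and heat shock genes, 28 genes of cholesterol and fatty acid synthesis, 15 microtubule and doublecortin-family genes and 30 growth factors and receptors (limma), with medians of -0.03, 0.06, 0.02 and 0.00. At an unadjusted p under 0.05 there were 4, 2, 0 and 3 of them, beside 8.10% of all genes tested.

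The receptors and transporters that mianserin binds did not pass. All 20 were tested, with log2 differences from -0.15 (Hrh2) to 0.22 (Htr1f) and a smallest adjusted p of 0.483 in limma, and 1 had an unadjusted p under 0.05, beside 8.10% of all genes tested. Htr2a, which encodes the 5-HT2A receptor, was at 4.17 to 5.56 FPKM after mianserin and at 3.59 to 5.53 FPKM after saline. Adra2a, for the alpha2A-adrenergic receptor, was at 0.674 to 1.13 FPKM against 0.671 to 1.00 FPKM, and Hrh1, for the H1 receptor, at 3.34 to 5.46 FPKM against 2.80 to 5.16 FPKM. The ranges overlapped for each of the 3.

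**Figure D2:**
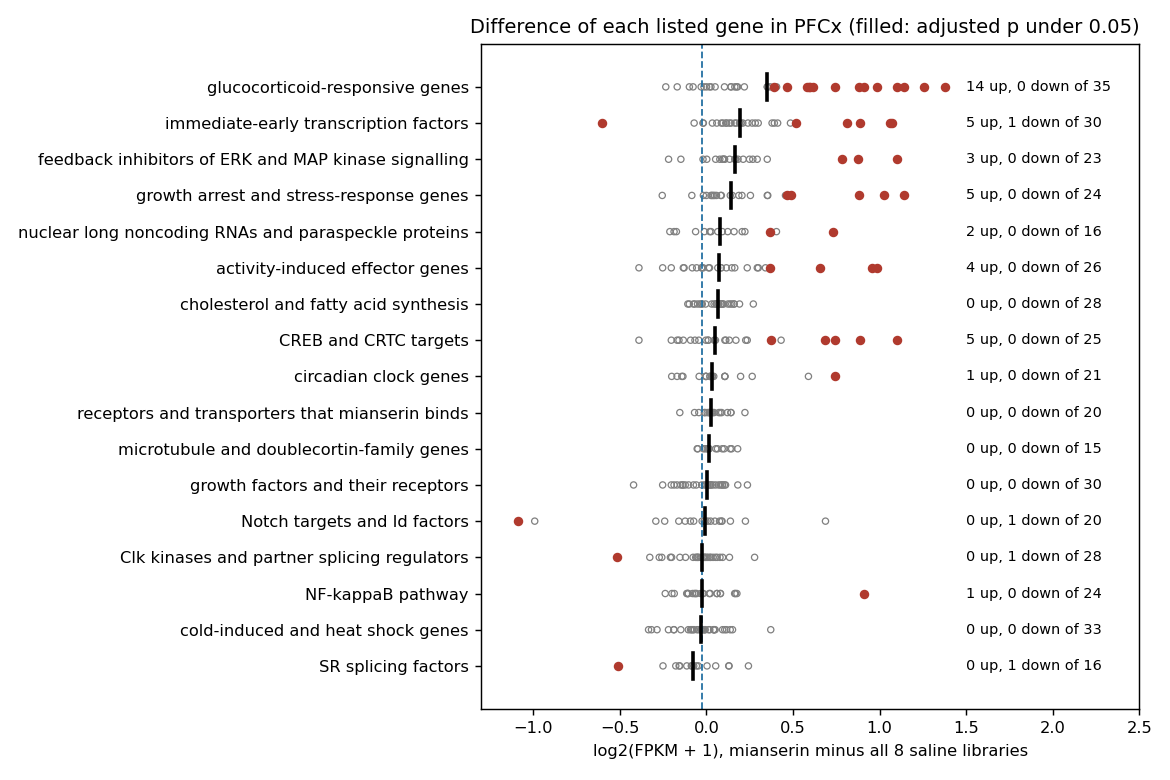
Log2 difference (mianserin minus all 8 saline libraries, on log2(FPKM + 1)) of each tested gene of 17 lists, with called genes filled, the median of each list as a bar and the median of all genes as a dashed line. The glucocorticoid-responsive list has the highest median, 0.35, with 14 of 35 genes called. The lists were chosen with earlier results of these data known.

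The promoters of the genes that moved were read for short motifs, and 6 are shown because their genes are described above and their letters hold sites of the cAMP, serum response and steroid receptor pathways. RefSeq for GRCm38.p6 held a promoter for 41 of the 69 genes that rose and 14 of the 41 that fell. In the 250 bases before the first listed start of each gene the CRE core TGACG, on either strand, was present for 20 of the 41 (48.8%), beside 21.7% of 16565 tested genes with a listed promoter and 14.3% of the 14. The full cAMP response element (CRE) TGACGTCA, which holds the core on both strands, was present for 5 of the 41 (12.2%), beside 2.13% of the 16565 and 7.14% of the 14 that fell. The palindromic steroid receptor element was present for 2 of the 41 (4.88%), beside 0.338% of the 16565 and 0 of the 14. The E-box CACGTG was present for 5 (12.2%), beside 7.08% and 21.4%, and the CArG box for 1 (2.44%), beside 1.3% and 7.14%, in the same order. The 2 of the 41 with a steroid receptor element were Txnip and the potassium channel gene Kcna5. The element of Sgk1 lies before a later listed start and was not counted. Among the other glucocorticoid-responsive rises, none with a listed promoter held the element before any listed start. These motif shares are a description with no test. The sequences run 5′ to 3′ on the strand of the gene and end at the base before the start, with each such match in capitals.
Dusp1, chr17:26508473-26508722, minus strand, with a CRE, a separate CRE core and an E-box: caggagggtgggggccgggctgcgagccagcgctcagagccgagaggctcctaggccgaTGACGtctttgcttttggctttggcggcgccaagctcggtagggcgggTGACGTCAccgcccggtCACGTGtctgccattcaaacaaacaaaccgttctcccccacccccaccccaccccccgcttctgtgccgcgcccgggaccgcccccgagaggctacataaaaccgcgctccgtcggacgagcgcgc
Arl4d, chr11:101665291-101665540, plus strand, with a CRE and a separate CRE core: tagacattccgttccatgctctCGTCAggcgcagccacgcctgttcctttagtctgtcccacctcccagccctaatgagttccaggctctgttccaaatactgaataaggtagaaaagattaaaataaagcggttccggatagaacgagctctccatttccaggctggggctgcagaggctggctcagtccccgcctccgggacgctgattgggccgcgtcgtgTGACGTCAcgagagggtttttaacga
Nr4a1, chr15:101266596-101266845, plus strand, with 4 CRE cores: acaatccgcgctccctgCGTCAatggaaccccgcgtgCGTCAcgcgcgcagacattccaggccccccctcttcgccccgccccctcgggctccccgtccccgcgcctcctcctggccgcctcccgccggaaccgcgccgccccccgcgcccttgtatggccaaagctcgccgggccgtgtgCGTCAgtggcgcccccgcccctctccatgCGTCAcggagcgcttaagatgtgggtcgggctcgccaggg
Dusp5, chr19:53528895-53529144, plus strand, with 2 adjoining CArG boxes, the site of serum response factor, and a CRE core: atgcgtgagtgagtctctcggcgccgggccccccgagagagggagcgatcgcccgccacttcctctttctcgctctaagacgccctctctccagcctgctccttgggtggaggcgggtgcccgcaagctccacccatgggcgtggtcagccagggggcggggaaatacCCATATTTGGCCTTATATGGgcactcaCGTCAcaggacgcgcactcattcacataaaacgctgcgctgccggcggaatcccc
Sgk1, chr10:21993640-21993889, plus strand, before the fifth of 6 listed starts, with an E-box and a steroid receptor element: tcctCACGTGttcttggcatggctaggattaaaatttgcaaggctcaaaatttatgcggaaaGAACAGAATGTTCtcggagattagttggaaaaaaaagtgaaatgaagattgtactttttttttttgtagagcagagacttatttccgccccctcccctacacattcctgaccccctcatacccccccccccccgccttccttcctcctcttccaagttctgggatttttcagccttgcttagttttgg
Txnip, chr3:96557707-96557956, plus strand, with a steroid receptor element: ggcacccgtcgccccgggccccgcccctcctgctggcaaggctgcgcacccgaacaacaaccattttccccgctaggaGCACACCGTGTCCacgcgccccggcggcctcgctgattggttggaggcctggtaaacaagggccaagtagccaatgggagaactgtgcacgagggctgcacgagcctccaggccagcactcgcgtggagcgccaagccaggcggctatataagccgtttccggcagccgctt

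Hes5 had the largest fall of those named by rule. It encodes a helix-loop-helix repressor downstream of Notch that is made in neural progenitors and astrocytes. Hes5 (chr4:154960923-154962371) was at 2.65, 2.10, 1.70 and 1.5 FPKM after mianserin, at 6.57, 6.66, 5.05 and 6.25 FPKM in saline set I and at 4.03, 4.33, 4.72 and 5.18 FPKM in set II. Set I was above set II on average, and each saline library was above every mianserin library. The log2 difference was -1.09 ± 0.13 (SE; limma adjusted p = 0.00511) against all saline and -0.91 ± 0.12 (SE; limma adjusted p = 0.0458) against set II. Astrocyte markers summed to 387 to 446 FPKM after mianserin and 372 to 452 FPKM after saline. Of 20 Notch targets and Id factors Hes5 alone passed (median -0.01), beside 0.297% of all genes tested. Hes1, a relative of Hes5, was at 3.35, 3.37, 3.50 and 2.21 FPKM after mianserin and at 1.01 to 2.16 FPKM after saline. It did not pass against all saline (limma adjusted p = 0.0734) and passed, as higher, against set II (0.0497). Id3, an inhibitor of helix-loop-helix factors, was at 1.21 to 2.67 FPKM after mianserin, 4.96 to 6.77 FPKM in set I and 2.84 to 3.39 FPKM in set II, and did not pass (limma adjusted p = 0.15).

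Kcnj2, Igf2bp3 and Mycbp were the other protein-coding falls named by rule beside Klf6. Kcnj2, an inward rectifier potassium channel, was at 1.46, 1.41, 1.30 and 1.02 FPKM after mianserin and at 2.11 to 2.69 FPKM after saline (-0.57 ± 0.07 SE; limma adjusted p = 0.00511). Igf2bp3, an RNA-binding protein, was at 1.90 to 2.2 FPKM against 2.72 to 3.22 FPKM (-0.35 ± 0.05 SE; limma adjusted p = 0.0216), and the call was lost without mianserin replicate 1, 2 or 3 (up to 0.115). Mycbp, which binds Myc, was at 2.32 to 2.75 FPKM against 3.12 to 4.13 FPKM (limma adjusted p = 0.0222), and was lost without any 1 mianserin library (up to 0.0998). The rule also named the noncoding genes Gm26652 and Gm14636 on chromosome X, Gm37633 inside Hecw2 and RP23-83P5.5, with log2 differences of -0.79, -0.64, -0.57 and -0.61. RP23-83P5.5 was lost without any 1 of 11 libraries (up to 0.145) and Gm26652 without mianserin replicate 1, 2 or 3 (up to 0.082). RP23-83P5.5 lies within Tra2a on the opposite strand, and since strand use in the counting is not stated, its reads and those of Tra2a cannot be told apart.

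**Figure D3:**
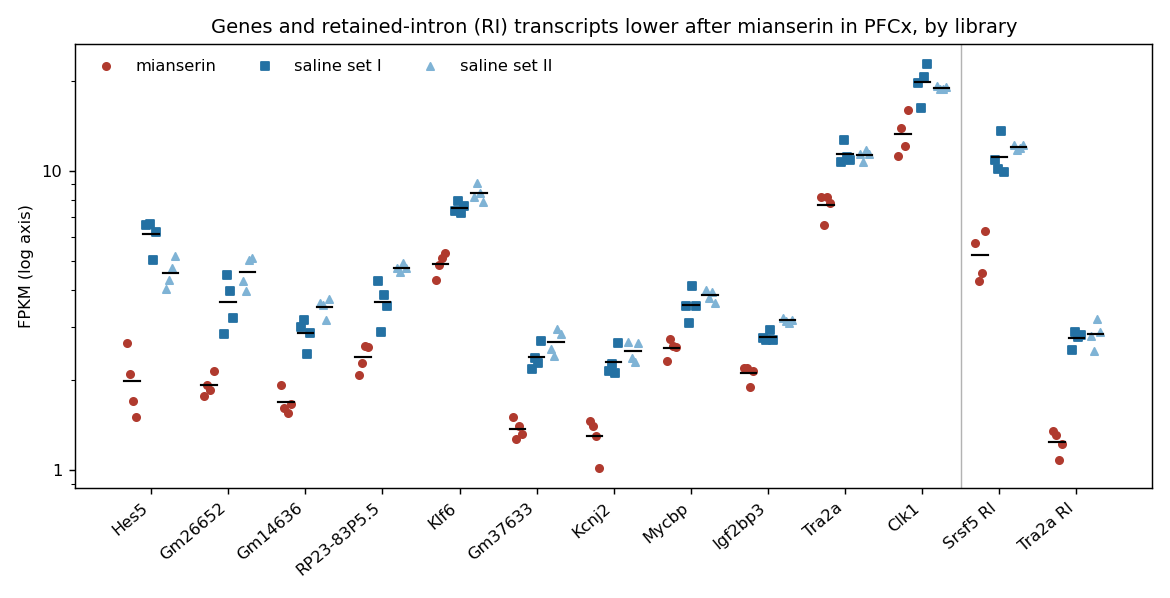
Level in FPKM (log axis) of the genes that fell by the naming rule, of Tra2a and Clk1, and, right of the grey line, of 2 retained-intron (RI) transcripts, with 1 point per PFCx library and a line at the mean of 4. The mianserin libraries lie below all saline libraries, for Hes5 at 1.5 to 2.65 FPKM against 4.03 to 6.66 FPKM. The rule required this of the genes it named.

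Retained-intron transcripts of the splicing factors Srsf5 and Tra2a fell. Transcripts that keep an intron are often held in the nucleus, and SR proteins and the Clk kinases that phosphorylate them take part in deciding which introns are removed. Of 84497 transcripts tested 57 passed (0.0675%), 36 higher (0.0426%) and 21 lower (0.0249%). Against set II 25 of 82606 passed (0.0303%), 9 higher (0.0109%) and 16 lower (0.0194%). The Srsf5 retained-intron transcript (2720 bases, chr12:80945532-80950503) was at 5.74, 4.28, 4.56 and 6.27 FPKM after mianserin, at 10.9, 10.1, 13.6 and 9.94 FPKM in saline set I and at 12.2, 11.7, 11.9 and 12.2 FPKM in set II. The groups did not overlap (log2 difference -1.02 ± 0.10 SE; limma adjusted p = 0.00398). Srsf5, an SR protein, did not pass as a gene (limma adjusted p = 0.853), and none of its protein-coding transcripts did. The transcript passed against set II (limma adjusted p = 0.0498).

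Tra2a, an SR-like splicing activator, fell as a gene, to 7.69 ± 0.740 FPKM from 11.3 ± 0.658 FPKM (SD, n = 4 and n = 8; limma adjusted p = 0.00511). Against set II Tra2a did not pass as a gene. Its retained-intron transcript (3788 bases, chr6:49260243-49264030) was at 1.35, 1.31, 1.08 and 1.22 FPKM after mianserin and at 2.5 to 3.21 FPKM after saline (-0.76 ± 0.06 SE; limma adjusted p = 0.00147). Clk1, a kinase of SR proteins, was at 11.2, 13.9, 12.1 and 15.9 FPKM after mianserin and at 16.2 to 22.7 FPKM after saline, where the ranges almost touched. Its adjusted p was 0.0438 in limma and 0.119 against set II, and the call was kept in 2 of the 12 fits that left out 1 library (up to 0.19). Tra2a alone passed among 16 SR splicing factors (median -0.08) and Clk1 alone among 28 Clk kinases and partner splicing regulators (median -0.03). Of all genes tested 0.297% passed. Of 35 retained-intron transcripts of the SR list 2 fell and none rose. Among all 14440 retained-intron transcripts 6 fell and 4 rose, with a median log2 difference of -0.03, beside -0.02 for all transcripts. Those that rose included one of Pxdn, a matrix peroxidase, at 2.39 to 3.13 FPKM against 0.622 to 1.47 FPKM (limma adjusted p = 0.016), and one of Mical2, an actin oxidase, at 6.28 to 7.02 FPKM against 3.01 to 4.61 FPKM (limma adjusted p = 0.0245). The Mical2 transcript was called in 3 of the 12 fits that left out 1 library (up to 0.127) and the Pxdn transcript in 10 (up to 0.0742).

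The split of reads among transcripts of 1 gene is an estimate, and it was uneven for Sgk1. The coding transcript of 2456 bases was at 10.3, 12, 12.8 and 11.3 FPKM after mianserin and at 0.504 to 5.98 FPKM after saline, and it did not pass (limma adjusted p = 0.0903). A retained-intron transcript of 347 bases within it was at 8.52, 12.3, 9.42 and 10.6 FPKM against 2.31 to 5.16 FPKM and passed (limma adjusted p = 0.016).

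Dclk1, a doublecortin-like kinase of neurons with many transcripts, did not pass as a gene. Its level (chr3:55242364-55539068) was 146, 121, 126 and 124 FPKM after mianserin, 103, 147, 121 and 125 FPKM in saline set I and 120, 116, 107 and 105 FPKM in set II. The groups overlapped (log2 difference 0.14 ± 0.09 SE; limma adjusted p = 0.781), none of its 15 transcripts passed, and the median log2 difference of these was 0.31. A retained-intron transcript of 1402 bases (ENSMUST00000198757) was at 8.62, 8.10, 8.40 and 9.76 FPKM after mianserin and at 4.03 to 6.52 FPKM after saline (0.61 ± 0.11 SE; limma adjusted p = 0.0903). A coding transcript of 6025 bases with 7 exons (ENSMUST00000167204) was at 12.2, 12.8, 13.3 and 13.1 FPKM against 7.43 to 11.1 FPKM (0.43 ± 0.10 SE; limma adjusted p = 0.181). These 2 were the only ones of the 15 with no overlap, which 0.449% of all transcripts showed in the same direction, and neither passed. A coding transcript of 5196 bases with 3 exons (ENSMUST00000199585) was at 1.67, 2.76, 1.71 and 2.76 FPKM against 0.0139 to 1.87 FPKM and overlapped (limma adjusted p = 0.224). Others varied within a group: ENSMUST00000054237, with 17 exons, ran from 0.101 to 10.4 FPKM within mianserin and from 1.86 to 14.5 FPKM within saline.

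**Figure D4:**
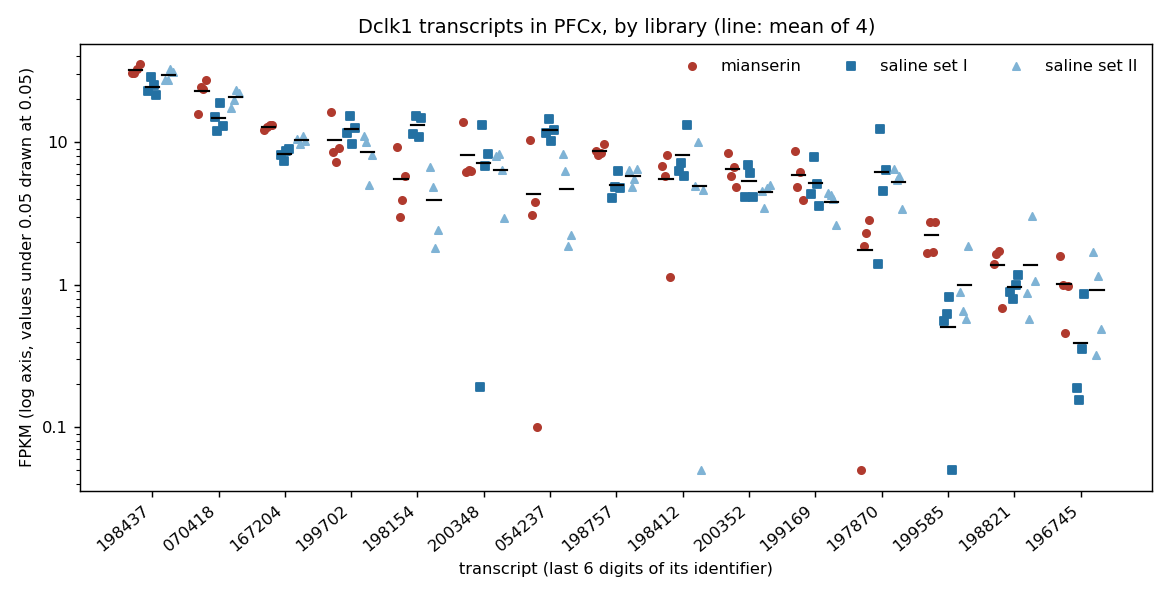
Level in FPKM (log axis) of the 15 Dclk1 transcripts, named by the last 6 digits of their identifiers, with 1 point per PFCx library and a line at the mean of 4; values under 0.05 are drawn at 0.05. Mianserin lies above all saline libraries for ENSMUST00000198757, at 8.10 to 9.76 FPKM, and for ENSMUST00000167204, at 12.2 to 13.3 FPKM.

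Noncoding genes made up most of the falls. All tested genes without a protein-coding transcript had a median log2 difference of -0.037, beside -0.018 for those with one. Of the 25 noncoding genes that fell 15 overlap a protein-coding gene, 10 of them on the same strand, and of the 15 that rose 9 do, 6 of them on the same strand. The share of such overlaps among all noncoding genes tested was not counted, so these counts describe the called genes only. Where they overlap, reads of the noncoding gene and of its neighbour cannot be told apart. On chromosome 1, 5 of the falls lie in the span of Gm4258 (chr1:137898595-138000384, plus strand) and were picked out after their values were seen: Gm4258, Gm37298, Gm37124, A130050O07Rik and Gm37534. Gm4258 was at 1.38, 1.38, 1.40 and 0.998 FPKM after mianserin and at 1.73 to 2.79 FPKM after saline (-0.52 ± 0.09 SE; limma adjusted p = 0.0439). Gm37298 was at 0.793 to 1.03 FPKM against 1.31 to 1.92 FPKM, and A130050O07Rik at 0.512 to 0.708 FPKM against 0.918 to 1.28 FPKM. Neither group of libraries overlapped the other in these genes. Against set II none of the 5 passed (limma adjusted p from 0.0598 to 0.0963). The stretch holds 14 genes, 5 of them called and 6 with all 4 mianserin libraries below all saline libraries, and it was picked out by its falls. The 5 are all on the plus strand, and whether they are parts of 1 longer transcript was not tested. Of all 37006 genes tested 0.111% fell and 292 had all 4 mianserin libraries below.

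The stretch also holds the hairpins of 2 microRNAs, Mir181a-1 and Mir181b-1, and neither passed (limma adjusted p = 0.962 and 0.594). Mir181a-1 was at 0.0534 to 2.56 FPKM after mianserin and 0.528 to 2.84 FPKM after saline. Mir26a-1, a microRNA hairpin inside Ctdspl, was called higher, at 0.620, 1.19, 1.22 and 1.70 FPKM after mianserin and 0 to 0.520 FPKM after saline (0.84 ± 0.15 SE; limma adjusted p = 0.0468, and 0.154 against set II). A hairpin this short at so low a level rests on few reads. It lies on the strand of Ctdspl, so its reads and those of its host cannot be told apart. These libraries measured long RNA and not mature microRNAs. The mature sequences are shown, from RefSeq for GRCm38.p6, because the pair on chromosome 1 shares its seed, bases 2 to 8, in capitals.
mmu-miR-181a-5p, chr1:137966468-137966490: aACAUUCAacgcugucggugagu
mmu-miR-181b-5p, chr1:137966650-137966673: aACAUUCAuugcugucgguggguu
mmu-miR-26a-5p, chr9:119031811-119031832: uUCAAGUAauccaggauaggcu

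Of 16 nuclear long noncoding RNAs and paraspeckle proteins 2 rose and none fell (median 0.08), beside 0.186% and 0.111% of all genes tested. Snhg12, a host of small nucleolar RNAs, was at 82.3, 74.3, 73.4 and 48.1 FPKM after mianserin and at 36.4 to 45.4 FPKM after saline (limma adjusted p = 0.026). Snora61, a small nucleolar RNA within the span of Snhg12, was at 210, 308, 279 and 258 FPKM against 123 to 200 FPKM (limma adjusted p = 0.0387), and reads of the pair cannot be told apart. Neat1, the scaffold of paraspeckles, was at 3.92 to 4.88 FPKM against 2.71 to 3.28 FPKM (limma adjusted p = 0.0338). The call of Snhg12 was kept in 3 and that of Neat1 in 1 of the 12 fits that left out 1 library (up to 0.129 and 0.114). Neither Snhg12 nor Neat1 passed against set II.

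Mianserin was also set beside venlafaxine (16 mg/kg), which blocks the reuptake of serotonin and noradrenaline, and ketamine (20 mg/kg), an NMDA receptor blocker, each with 4 PFCx libraries. Between mianserin and venlafaxine 52 of 35908 genes passed (0.145%), 35 higher (0.0975%) and 17 lower (0.0473%) after mianserin, and between mianserin and ketamine 43 passed (0.12%), 26 higher (0.0724%) and 17 lower (0.0473%). Both tests share the mianserin libraries. Txnip was at 11.5 ± 0.682 FPKM after mianserin, 4.72 ± 0.102 FPKM after venlafaxine and 3.66 ± 0.814 FPKM after ketamine (SD, n = 4 each), and both differences passed (log2 1.12 ± 0.12 and 1.44 ± 0.12 SE; limma adjusted p = 0.000529 and 0.000145). Cyr61, at 1.79, 0.507 and 0.497 FPKM in the same order, was likewise higher than after either drug (limma adjusted p = 0.000574 and 0.00139). Hes5, at 1.99, 3.99 and 4.95 FPKM, was lower than after either (limma adjusted p = 0.0319 and 0.00661).

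Fos was at 12.1 FPKM after mianserin, 6.01 FPKM after venlafaxine and 8.99 FPKM after ketamine, and the first difference passed (log2 0.90 ± 0.11 SE; limma adjusted p = 0.00287) while the second did not (0.40 ± 0.11 SE; 0.327). Arc was at 15.0, 6.07 and 10.8 FPKM (limma adjusted p = 0.019 and 0.609). Tsc22d3 was at 16, 10.7 and 17.0 FPKM, with a difference from ketamine of -0.08 ± 0.10 (SE; limma adjusted p = 0.951). Clk1 was at 13.3, 18.5 and 21.1 FPKM, below ketamine (-0.63 ± 0.09 SE; limma adjusted p = 0.0111), and the difference from venlafaxine did not pass (-0.46 ± 0.09 SE; 0.0894). Whether venlafaxine and ketamine differ in these genes was not tested.

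**Figure D5:**
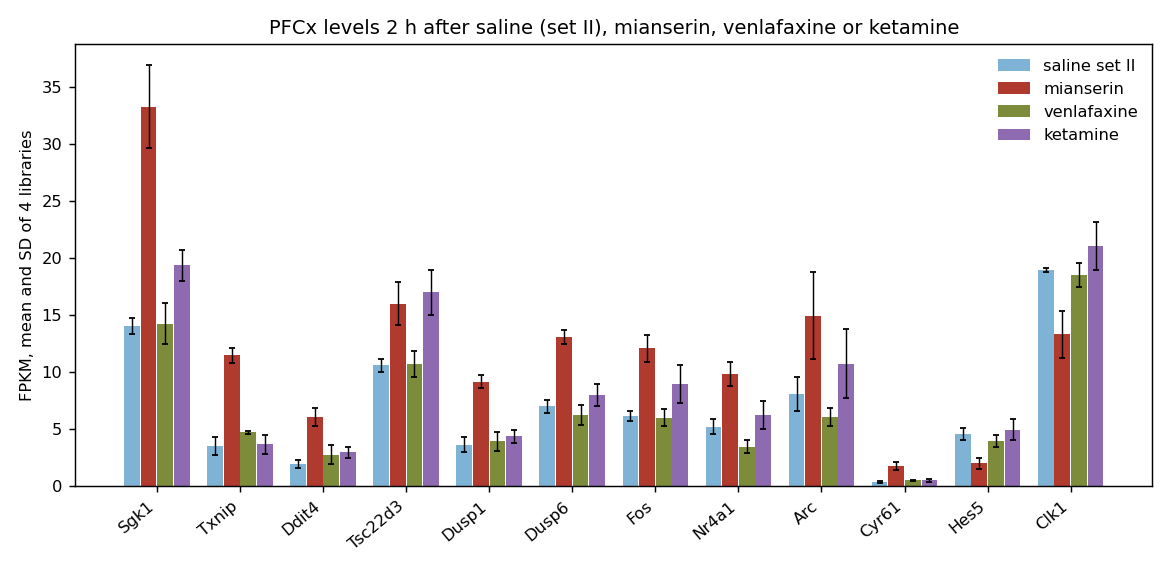
Mean level in FPKM with its SD (n = 4 libraries per bar) of 12 genes in PFCx after saline (set II), mianserin, venlafaxine or ketamine. Mianserin has the highest bar for Sgk1 (33.3 FPKM) and the lowest for Hes5 (1.99 FPKM), while Tsc22d3 is at 16 FPKM after mianserin and 17.0 FPKM after ketamine.

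The mianserin effect in PFCx was set against that in the NAc in a fit of 16 libraries, and 5 of 35639 genes passed for the difference between tissues (0.014%). Sgk1 was at 62.9 ± 6.73 FPKM after mianserin and 19.6 ± 1.40 FPKM after saline in the NAc (SD, n = 4 each). The PFCx effect on Sgk1 minus that in the NAc was -0.44 ± 0.12 (SE; limma adjusted p = 0.315). Txnip was at 13.9 ± 1.02 FPKM against 3.90 ± 0.823 FPKM in the NAc, with a difference between tissues of -0.16 ± 0.18 (SE; limma adjusted p = 0.861). Hes5 was at 2.69 ± 0.845 FPKM against 5.96 ± 0.396 FPKM there (difference 0.03 ± 0.19 SE; limma adjusted p = 0.984). Arc was at 4.86 ± 0.800 FPKM against 5.71 ± 0.714 FPKM in the NAc, and the difference between tissues, 1.00 ± 0.22 (SE), did not pass (limma adjusted p = 0.215). Dusp5 had a PFCx effect larger by 0.70 ± 0.11 (SE), which did not pass either (limma adjusted p = 0.0785).

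The called genes also included some outside these groups, chosen here after their values were seen. Ucp2, a mitochondrial carrier, was at 4.35 to 5.76 FPKM after mianserin and 2.30 to 3.40 FPKM after saline (limma adjusted p = 0.00671). Zfp189, a zinc-finger protein, was at 2.29 to 3.58 FPKM against 0.899 to 1.87 FPKM (limma adjusted p = 0.00932), and Mafk, a small Maf factor, at 1.85 to 2.26 FPKM against 0.834 to 1.35 FPKM (limma adjusted p = 0.00574). Apold1, a gene of endothelial cells, was at 0.985 to 1.24 FPKM against 0.311 to 0.766 FPKM (limma adjusted p = 0.0129), beside endothelial markers that summed to 36.3 to 43.4 FPKM and 34.0 to 43.7 FPKM. All 4 genes rose without overlap, which 1.36% of all genes tested showed in either direction. Kcna1 and Kcna5, subunits of potassium channels, rose by 0.31 ± 0.05 and 0.33 ± 0.05 (SE; limma adjusted p = 0.0318 and 0.0222). Kcnv1, a silent potassium channel subunit, was at 8.21 to 8.98 FPKM against 9.52 to 11.3 FPKM (limma adjusted p = 0.0476), below saline in every library. Ahr, the receptor that induces Tiparp, fell to 1.31 ± 0.207 FPKM from 2.30 ± 0.339 FPKM (SD, n = 4 and n = 8; limma adjusted p = 0.0387).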

How the data were processed

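The authors aligned the reads with TopHat2 2.0.1 and then Tmap, and deposited 1 table per library from Cufflinks 2.2.1, with FPKM and coverage per Ensembl transcript of mm10. Whether strand was used in the counting is not given in the sources used here. FPKM was the value tested. The deposited coverage served for an estimate of depth, the median of coverage over FPKM for transcripts of at least 2000 bases and 5 FPKM. This estimate was 1.52 to 2.78 gigabases in the 12 libraries of the main comparison. Cufflinks divides shared reads among transcripts by a model, so values of transcripts of a gene depend on each other.

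FPKM was taken for 112714 transcripts and summed over the 46686 gene symbols. Tests were made in limma 3.58.1 (R 4.3.3) on log2(FPKM + 1), which understates changes of low genes, for features with a mean of at least 0.1 FPKM over the fitted libraries, with Benjamini-Hochberg adjustment over all of them and a threshold of 0.05. Summed marker levels were compared by two-sided exact permutation tests of the mean log2 value over 495 splits. Groups came from the labels, which give a set for saline only. The venlafaxine and ketamine comparisons were fitted with saline set II (16 libraries), and the PFCx against NAc comparison used saline set II in both tissues. The fits were tested on simulated data. Figures were drawn in matplotlib 3.10.9 under Python 3.11.15.

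The members, lists and tests were chosen with earlier results of these data known. The naming rule took the list members, the 10 largest rises and 10 largest falls (9 met it) among genes with a mean of at least 1 FPKM that passed against all saline and against set II and whose mianserin libraries lay outside the saline range, the Dclk1 transcripts, and by the same rule up to 6 transcript rises and 6 falls of genes not called. A transcript met by this rule is not reported here. Alternatives were another pseudocount, other filters, a 75th percentile scale, a replicate block and a mean-variance trend. Further ones were the saline sets as separate groups, other saline libraries, protein-coding sums (chosen after seeing the data) and leaving out each library.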

Additional observations from a re-analysis of the deposited data

Results flagged for a closer look

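Single libraries stood apart from the rest of their group of 4 in 9 of 201 groups tested over 67 genes and transcripts, by a gap above the 95% critical value of Dixon's test, and chance flags about 1 in 20 groups. Among the mianserin libraries, Nfkbia was at 4.00 FPKM in replicate 2 with the others at 5.39 to 5.60 FPKM. Tiparp was at 4.66 FPKM in replicate 4 with the others at 3.97 to 4.05 FPKM. Per1 was at 9.48 FPKM in replicate 3 with the others at 11.7 to 12.1 FPKM, and Igf2bp3 at 1.90 FPKM in replicate 3 with the others at 2.15 to 2.2 FPKM. In these 4 genes the library still lay on the same side of all saline libraries as the others. The Dclk1 transcript ENSMUST00000200348, of 413 bases, was at 13.9 FPKM in mianserin replicate 1 with the others at 6.23 to 6.34 FPKM.

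Among the saline libraries, Arl4d was at 1.02 FPKM in set I replicate 3 with the others at 1.43 to 1.51 FPKM, and Neat1 at 2.71 FPKM in set I replicate 4 with the others at 3.12 to 3.18 FPKM. Dusp5 was at 0.978 FPKM in set II replicate 4, the library with the highest striatal markers, with the others at 0.785 to 0.806 FPKM. The Itpr1 transcript ENSMUST00000205053 was at 0.934 FPKM in set II replicate 1 with the others at 1.30 to 1.31 FPKM.

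The mianserin effect differed between PFCx and NAc by the test of the difference itself for 5 genes. The PFCx effect minus the NAc effect on the log2 scale was -1.32 for AC137871.1, -0.67 for AV026068, -0.55 for Gm43463 and -0.86 for RP23-170C11.3, and it was 1.47 for Gm14119. The limma adjusted p-values were 0.0427, 0.0406, 0.0453, 0.0427 and 0.0427 in that order. With a replicate block or a mean-variance trend limma called 0 genes, with 3294 and 3236 at an unadjusted p under 0.05.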

How the results depend on the processing

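The count of called genes against all saline was 110. It was 48 with a pseudocount of 0.1, 63 with a mean-variance trend and 178 (76 higher, 102 lower) with the saline sets fitted as separate groups. In that fit mianserin was compared with set II, and set I entered only the estimate of the spread. Against saline set I only it was 624 (101 higher, 523 lower), and with all 32 PFCx libraries in the fit 251 (129 higher, 122 lower). With protein-coding transcripts only, an alternative chosen after seeing the data, it was 73. The cause was not tested. No filter, a mean of at least 1 FPKM and the 75th percentile scale gave 110, 94 and 113, of which 100, 84 and 90 were among the 110 first called. The labels give no set for the mianserin libraries, so a difference of set and one of treatment cannot be told apart. For transcripts the count of 57 became 23, 36, 100, 329 and 303 under the first 5 of these in that order and 104 with no filter. Against set II the 53 genes became 9 with the pseudocount and 28 with the trend. The 25 transcripts became 46 with the pseudocount, 13 with no filter, 0 with the 75th percentile scale and 0 with the trend in limma (8496 and 7975 at an unadjusted p under 0.05). Of the 46 and the 13, 6 and 8 were among the 25. The 5 genes that differed between tissues became 2 with no filter, 2 with a mean of at least 1 FPKM, 0 with the trend and 3 with all 8 saline libraries in both tissues. With the pseudocount of 0.1 the 52 genes against venlafaxine became 28, with 26 of them among the 52. The 43 against ketamine became 21, with 19 of them among the 43.

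Replicate numbers are shared by the groups. The deviations of same-numbered mianserin and set II libraries correlated from -0.08 to 0.32 over genes, with a mean of 0.165. For libraries of different number the range was -0.37 to 0.31, with a mean of -0.054. Of the 4 mianserin libraries 3 correlated best with their own number. The labels do not say whether same-numbered libraries were handled together, so a pairing cannot be told from these values. With the replicate block the counts were 42 genes and 8 transcripts against all saline, and, in limma, 0 genes and 0 transcripts against set II and 0 genes between tissues (4869, 8490 and 3294 at an unadjusted p under 0.05). Against venlafaxine and ketamine 45 and 36 genes passed with it.

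Leaving out 1 library gave 35 to 92 genes and 19 to 56 transcripts against all saline, 11 to 153 genes and 0 to 26 transcripts against set II, 0 to 33 genes between tissues, 25 to 52 against venlafaxine and 22 to 47 against ketamine. Of 52 named genes and transcripts called, 21 were called in all 12 of these fits.

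Signs reversed for 3 Dclk1 transcripts, none of them called. The log2 difference of ENSMUST00000198412 (-0.12 in the fit reported) was 0.12 with the pseudocount of 0.1 and 0.37 against set II. It was -0.50 to 0.35 without 1 library (0.05 without set I replicate 4, 0.35 without mianserin replicate 4). That of ENSMUST00000199702 (-0.02) was 0.017 with the 75th percentile scale, 0.23 against set II, and -0.25 to 0.11 without 1 library. That of ENSMUST00000198154 (-0.40) was 0.41 against set II. The fit with the saline sets as separate groups takes the same differences as set II alone. A gene of low FPKM rests on few reads, and 86 of the 110 called genes had a mean of at least 1 FPKM.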
